A study of Homo sapiens with 20 samples.

Results

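The 10 genes described here are the stress response transcription factors ATF4, ATF5, ATF3 and DDIT3, their feedback and effector genes PPP1R15A, TRIB3, CHAC1 and DDIT4, and the enzymes ASNS and ASS1. They were chosen by name with earlier results of these data known, so that their counts beside those of all genes are a description. Every probe set whose annotation carries no other gene symbol than theirs was taken. This gave 18 probe sets out of the 41097 with 1 symbol and 10 genes out of 19775. RNA levels were read on 20 Affymetrix HG-U133 Plus 2.0 arrays of 4 lines derived from U937, a human myeloid leukemia line. Clones E10 and E14 (U937T_EVI1-HA) carry an HA-tagged EVI1 that is repressed by tetracycline (tet), and were harvested 6, 12, 24 and 48 h after the cells had been washed and returned to medium with or without tet. The empty vector clone P2 (U937T_vec) and parental U937T cells were treated likewise and harvested at 48 h. Puromycin was present in all cultures and hygromycin in those of E10, E14 and P2, and all lines had been grown in tet beforehand. E10, E14 and P2 are each 1 clone, and there is 1 array for each combination of line, time and culture, so that the 2 clones stood as replicates of each other, as did the 2 control lines. Nothing in the labels says that cultures were repeated. The p-values rest on how far the lines of a group still differed once their average difference was taken out, pooled over all 20 arrays. They do not measure the spread between repeated cultures. The question was which of the 10 genes changed when tet was withdrawn in the EVI1 clones, when, and by how much more than in the lines without the transgene.

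When translation initiation factor eIF2 is phosphorylated on its alpha subunit by kinases that sense amino acid shortage, heme shortage, unfolded proteins in the endoplasmic reticulum (ER) or double-stranded RNA, general protein synthesis falls while translation of the ATF4 mRNA rises. ATF4 then pairs with C/EBP and other basic leucine zipper (bZIP) proteins on C/EBP-ATF response elements and activates genes for amino acid synthesis, amino acid uptake and tRNA charging, together with its own inhibitors. Much of the regulation of ATF4 is on translation and protein stability, which arrays do not measure. ASS1, which joins citrulline and aspartate on the way to arginine, is silenced in many tumors, which then depend on arginine from outside, and ASNS, which makes asparagine from aspartate and glutamine, is low in many leukemias that respond to asparaginase.

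The start regions of ASNS, CHAC1, ATF3 and ASS1 are shown because the first 3 hold a match to the core of the C/EBP-ATF response element and the fourth, of the gene that changed most, holds none. Each window runs from 250 bases before to 50 bases after a RefSeq gene start (GRCh38.p14), on the strand of the gene, and capitals mark the match to TGATGNAAN, searched on both strands.
ASNS, chr7:97872359-97872658, minus strand: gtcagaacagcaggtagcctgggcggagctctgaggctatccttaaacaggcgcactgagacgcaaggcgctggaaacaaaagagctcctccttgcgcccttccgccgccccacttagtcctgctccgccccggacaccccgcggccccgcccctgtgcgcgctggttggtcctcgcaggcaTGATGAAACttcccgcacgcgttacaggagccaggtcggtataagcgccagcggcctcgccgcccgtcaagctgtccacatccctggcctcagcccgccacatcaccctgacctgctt
CHAC1, chr15:40953221-40953520, plus strand, match on the opposite strand: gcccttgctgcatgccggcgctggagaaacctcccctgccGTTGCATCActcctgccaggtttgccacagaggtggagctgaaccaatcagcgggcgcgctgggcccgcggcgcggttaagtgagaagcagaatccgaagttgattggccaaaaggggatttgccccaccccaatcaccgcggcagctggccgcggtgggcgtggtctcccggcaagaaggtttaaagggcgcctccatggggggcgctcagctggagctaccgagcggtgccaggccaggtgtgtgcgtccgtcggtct
ATF3, chr1:212565157-212565456, plus strand: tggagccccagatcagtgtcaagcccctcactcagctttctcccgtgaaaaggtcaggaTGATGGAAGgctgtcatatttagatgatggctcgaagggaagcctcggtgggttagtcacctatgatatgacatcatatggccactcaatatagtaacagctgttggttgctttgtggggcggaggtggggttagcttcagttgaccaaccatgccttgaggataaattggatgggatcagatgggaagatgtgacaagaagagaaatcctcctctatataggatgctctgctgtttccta
ASS1, chr9:130444457-130444756, plus strand: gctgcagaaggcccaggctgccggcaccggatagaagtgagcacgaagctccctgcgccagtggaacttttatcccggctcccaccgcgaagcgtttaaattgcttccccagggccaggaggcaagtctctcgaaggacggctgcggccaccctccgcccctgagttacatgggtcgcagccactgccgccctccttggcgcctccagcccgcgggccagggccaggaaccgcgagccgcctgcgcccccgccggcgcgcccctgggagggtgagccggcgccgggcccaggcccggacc
The match began at base -68 from the start in ASNS, at -210 in CHAC1 and at -191 in ATF3. Of the 19 member windows, 3 held the motif, in 3 of the 10 genes, against 3.61% of all 35116 windows in the table and 4.45% of its 27305 genes. TRIB3, DDIT3, DDIT4, PPP1R15A, ATF4 and ATF5 had no match in these windows, which says only that the letters are not there.

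On the only MECOM (EVI1) probe set with a high signal, the level in the clones lay between 7.06 and 7.34 (log2 intensity) with tet and between 8.52 and 10.51 without tet, whereas P2 had 6.90 with and 5.91 without it and U937T 6.48 and 6.53. Of 9 myeloid marker genes, 8 had a median level of at least 6 over the arrays, and the exception was MPO (4.43 to 5.33). Of 4 T and B cell markers, 1 had such a median, the B cell gene CD79A (7.53 to 8.41). The medians of CD3E, CD3D and MS4A1 were 5.65, 5.28 and 4.28, and that of the erythroid marker HBB was 5.69. None of 4 epithelial and fibroblast markers had a median of at least 6. The difference between 3′ and 5′ control probe sets of actin and GAPDH, a sign of RNA integrity, ranged from 0.19 to 1.52 (log2). It was lowest in E10 at 6 h (0.19 and 0.29 with and without tet) and highest in E14 at 24 h (1.52 and 1.40), and at 48 h it lay at 0.66 and 0.68 in E10 and at 0.74 and 0.84 in E14. Levels below are the authors' log2 intensities, and they were compared between arrays for 1 probe set, never between genes. Each gene is given by its probe set with the highest mean. All of the 18 probe sets but 1 passed the intensity filter, the exception being the second one of ASNS with 2.59 to 3.10 on all arrays. A smaller share of cells that express a gene and less RNA per cell cannot be told apart in such bulk samples.

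In the EVI1 clones 7 of the 10 genes changed 48 h after tet withdrawal. ASS1, ASNS, CHAC1, TRIB3 and ATF4 were lower without than with tet, by 1.82-fold to 4.77-fold. PPP1R15A and ATF3 were higher, by 1.84-fold and 1.74-fold, while ATF5, DDIT3 and DDIT4 did not pass the test. Where no span of time is named, a rise or fall below means this difference between cultures, not a change over time. A gene was called when the adjusted p of limma, over all 35610 probe sets tested, was under 0.05. With 1 probe set per gene, 14.7% of all 17860 genes were called higher and 13.2% lower in this comparison, against 2 and 5 of the 10 genes. The median difference was -0.56 (log2) over the 10 genes and -0.04 over all genes.

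ATF4, the factor that gives the response its name, was at 12.11, 12.24, 12.52 and 12.55 in E10 with tet at 6, 12, 24 and 48 h, and at 12.25, 12.25, 12.21 and 11.68 without. E14 had 12.24, 12.30, 12.62 and 12.54 with tet and 12.23, 12.06, 12.26 and 11.68 without. Both clones thus ended higher than they began with tet and lower than they began without it, and at 48 h the cultures without tet held the lowest ATF4 levels of all 20 arrays. The difference without minus with tet was -0.33 ± 0.10 (log2, 2 clones, SE from the pooled spread, adjusted p = 0.0428) at 24 h. At 48 h it was -0.86 ± 0.10 (adjusted p = 2.37e-05). At 48 h the differences of the 2 clones were -0.86 and -0.86. On tet withdrawal ATF4 went from 12.37 to 12.06 in P2 while in U937T it began at 12.47 and came to 12.06, and over both control lines it fell by 0.36 ± 0.10 (adjusted p = 0.046).

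ATF5, a relative of ATF4 that is also under translational control, was read by 4 probe sets, and none of them was called in any comparison. Its main probe set lay between 7.89 and 9.02 over all arrays. At 48 h it went from 8.21 to 8.14 in E10 and from 8.44 to 8.21 in E14 (-0.15 ± 0.17, adjusted p = 0.613, 95% interval -0.52 to 0.22). The control lines went opposite ways, with 8.03 and 8.10 in P2 and 8.46 and 7.89 in U937T, with and without tet.

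ATF3, a bZIP factor induced by many stresses, was higher at 48 h where ATF4 was lower. In E10 it was at 7.18, 7.00, 7.08 and 7.12 with tet and at 7.34, 7.19, 7.26 and 8.11 without, in order of time. In E14 it was at 7.31, 6.62, 6.88 and 7.14 with tet and at 7.14, 7.31, 7.24 and 7.73 without. Both clones without tet at 48 h lay above every other array. The rise was 0.80 ± 0.14 (log2, adjusted p = 0.000831), 1.00 in E10 and 0.60 in E14, and without E10 it was no longer called (0.60, adjusted p = 0.148; over the alternatives that p ran from 0.000329 to 0.148). P2 went from 6.71 to 6.89 and U937T from 6.23 to 6.64 (0.29 ± 0.14, adjusted p = 0.28). The other probe sets of ATF3, at 6.09 to 6.82 and 4.17 to 4.60, were not called in any comparison, so the rise stood on 1 of 3 probe sets.

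DDIT3 (CHOP), the proapoptotic partner and target of ATF4, lay between 7.21 and 7.86 on all 20 arrays. At 48 h it was at 7.65 with and 7.56 without tet in E10 and at 7.70 and 7.72 in E14. The difference of -0.03 ± 0.12 (adjusted p = 0.89) had a 95% interval from -0.29 to 0.23, and the clones did not move the same way. The lowest levels were those of the control lines, with 7.21 and 7.44 in P2 and 7.42 and 7.26 in U937T, with and without tet.

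PPP1R15A (GADD34) brings protein phosphatase 1 to eIF2 alpha and ends the response. It was at 7.78, 7.71, 7.62 and 7.40 in E10 with tet and at 7.76, 7.74, 7.87 and 8.25 without. E14 had 8.12, 7.83, 7.57 and 7.37 with tet and 8.22, 7.81, 7.98 and 8.27 without. The cultures of both clones thus parted in opposite directions after 12 h. At 48 h the difference without minus with tet reached 0.88 ± 0.12 (adjusted p = 0.000155). From 6 to 48 h PPP1R15A changed by -0.382 in E10 and -0.747 in E14 with tet, and by 0.492 and 0.054 without. Its other probe set went from 6.83 to 7.24 in E10 and from 6.87 to 7.44 in E14 (0.49 ± 0.13, adjusted p = 0.0139). P2 went from 7.23 to 7.70 and U937T from 7.25 to 7.69, a difference of 0.45 ± 0.12 that just missed the threshold (adjusted p = 0.0502).

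TRIB3, a pseudokinase that binds ATF4 and DDIT3 and restrains them, was at 9.30, 9.40, 9.62 and 9.84 in E10 with tet and at 9.28, 9.32, 9.16 and 8.99 without. In E14 it was at 9.43, 9.37, 9.89 and 9.94 with tet and at 9.55, 9.20, 9.28 and 8.91 without. Without tet it was lower than with tet by 0.54 ± 0.11 (adjusted p = 0.00762) at 24 h and by 0.94 ± 0.11 (adjusted p = 4.53e-05) at 48 h. From 6 to 48 h this probe set changed by 0.538 in E10 and 0.504 in E14 with tet, and by -0.286 and -0.643 without. The second probe set gave a like fall at 48 h (-0.97 ± 0.25, adjusted p = 0.0109), from 6.84 to 6.05 in E10 and from 6.85 to 5.71 in E14, and it was not called at 24 h (-0.34, adjusted p = 0.469). In the control lines TRIB3 was at 9.71 with and 9.38 without tet in P2, and at 9.66 and 9.39 in U937T (-0.30 ± 0.11, adjusted p = 0.167).

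CHAC1, which degrades glutathione and is a target of ATF4, was at 6.96, 7.15, 7.37 and 7.60 in E10 with tet and at 6.83, 7.16, 7.06 and 6.69 without. E14 had 6.98, 6.73, 7.14 and 7.71 with tet and 6.96, 6.80, 7.16 and 6.62 without. At 24 h the clones differed in sign (-0.31 and 0.02 without minus with tet), and at 48 h CHAC1 fell by 1.00 ± 0.14 (adjusted p = 0.000176). P2 went from 7.23 to 6.68 and U937T from 7.06 to 6.71 (-0.45 ± 0.14, adjusted p = 0.091).

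DDIT4 (REDD1), an inhibitor of mTORC1 signaling, was higher at 48 h than at 6 h in both clones, with and without tet. With tet it was at 9.67, 10.39, 11.02 and 11.59 in E10 and at 9.88, 10.20, 11.01 and 11.74 in E14. Without tet it was at 9.92, 10.20, 10.83 and 11.44 in E10 and at 10.01, 9.86, 10.91 and 11.40 in E14. The difference without minus with tet was not called at any time (-0.25 ± 0.13, adjusted p = 0.197 at 48 h). P2 had 10.95 with and 10.78 without tet, and U937T 11.22 and 10.87 (-0.26 ± 0.13, adjusted p = 0.291).

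ASNS was at 10.23, 9.71, 10.03 and 10.23 in E10 with tet and at 10.19, 9.78, 9.80 and 9.04 without. E14 had 10.51, 9.86, 9.80 and 10.35 with tet and 10.37, 9.93, 9.56 and 9.01 without. With tet the level dipped in the middle of the series and came back by 48 h, and without tet the level at 48 h was the lowest of its series in both clones. The fall at 48 h was 1.26 ± 0.13 (log2, 2.40-fold, adjusted p = 1.19e-05), 1.19 in E10 and 1.33 in E14 by size. P2 went from 9.67 to 9.23 and U937T from 9.89 to 9.33, a fall by 0.50 ± 0.13 (adjusted p = 0.0439).

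ASS1 had the largest change of the 10 genes. In E10 it was at 10.11, 9.91, 9.95 and 10.18 with tet and at 10.08, 9.84, 9.43 and 8.15 without. In E14 it was at 10.62, 10.12, 9.98 and 10.44 with tet and at 10.59, 9.99, 9.41 and 7.96 without. At 6 and 12 h the cultures of a clone lay within 0.13 of each other, at 24 h those without tet were lower in both clones, and at 48 h they were lower than on any other array. ASS1 fell by 0.55 ± 0.16 (adjusted p = 0.037) at 24 h and fell by 2.25 ± 0.16 (4.77-fold, adjusted p = 4.64e-07) at 48 h. In the control lines it fell by 0.96 ± 0.16 (1.94-fold, adjusted p = 0.00352), with 10.07 and 9.23 in P2 and 10.09 and 9.02 in U937T, with and without tet. RefSeq lists 14 pseudogenes named after ASS1, 5 after ASNS and 4 after ATF4, and whether their RNA adds to these probe sets was not tested.

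By time, the first calls among the 10 genes were at 24 h. The control lines were harvested only at 48 h. At 6, 12 and 24 h, and between 24 and 48 h, tet withdrawal alone and EVI1 induction therefore cannot be told apart. None was called at 6 h or at 12 h by limma, where 0% of all genes were called at 6 h, and 0.0168% higher and 0.0112% lower at 12 h, and at an unadjusted p under 0.05 the counts were 0 of 10 at 6 h and 1 of 10 at 12 h (ATF3, 0.44 ± 0.14, adjusted p = 0.937). MECOM was already higher by 1.38 and 1.55 (log2) at 6 h and by 2.44 and 2.86 at 12 h in E10 and E14. At 24 h ATF4, TRIB3 and ASS1 were lower and no gene was called higher (1 at an unadjusted p under 0.05, PPP1R15A with 0.33 ± 0.12), against 7.81% of all genes lower and 6.55% higher. All 3 of these calls were lost without E10, without E14 or without the E14 arrays at 12 and 24 h. Such fits leave 1 clone at 24 h and take the spread from fewer arrays, so a lost call cannot show dependence on 1 clone. The same holds below for fits that leave 1 line in a group. The differences in E10 and E14 were -0.304 and -0.358 for ATF4, -0.458 and -0.615 for TRIB3, and -0.522 and -0.575 for ASS1. Under other settings the adjusted p was as low as 0.0069, 0.00325 and 0.0163, in the same order. The call of ATF4 was lost as well with no intensity filter (adjusted p = 0.0512), with the probe set of the largest spread per gene (0.0502) and in the fit of differences (0.0671), and that of ASS1 without the line as a block (0.0645). The difference without minus with tet was lower at 48 h than at 24 h for ASS1 (-1.71 ± 0.22, adjusted p = 0.00208) and ASNS (-1.03 ± 0.19, adjusted p = 0.0155). These are 2 of 10 genes against 0.890% of all genes. Both calls were lost without E10, without E14 or without the E14 arrays at 12 and 24 h. The size was -1.899 without E10 and -1.512 without E14 for ASS1, and -1.098 and -0.955 for ASNS. Under other settings the adjusted p was as low as 0.000491 and 0.00495. No gene was called higher in that comparison (2 at an unadjusted p under 0.05), where 1.24% of all genes were. CHAC1 (-0.86 ± 0.20, adjusted p = 0.0561) and ATF4 (-0.53 ± 0.14, adjusted p = 0.0815) missed the threshold.

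Tet withdrawal in the lines without the transgene lowered 3 of the 7 genes that changed in the clones. In P2 and U937T at 48 h, ASS1, ASNS and ATF4 were called lower, against 3.64% of all genes, and no gene was called higher (1 at an unadjusted p under 0.05, PPP1R15A), against 4.01%. The call of ATF4 was lost under 10 of 15 alternatives and that of ASNS under 7, for both of them in every fit that left out 1 of the 4 lines. That of ASS1 was lost under 1, the fit without U937T. Without E10 or E14 the differences of the control lines stayed at -0.362 for ATF4 and -0.495 for ASNS, and only the estimate of the spread changed. At the lowest the adjusted p was 0.00739 for ATF4, 0.0174 for ASNS and 0.00103 for ASS1. The median difference was -0.28 (log2) over the 10 genes and -0.02 over all genes. In each of the 7 genes called in the clones, by the probe set with the highest mean, both control lines moved the way the clones did, by less than either clone. The second probe set of PPP1R15A rose by 0.472 in P2 and 0.327 in U937T, against 0.413 in E10 and 0.572 in E14. Its difference between both responses was 0.092 ± 0.185 (limma, adjusted p = 0.888). On the second probe set of TRIB3, U937T moved the other way (0.09).

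The response of the clones beyond that of the control lines, tested as the difference of both responses at 48 h, was called for ASS1 (-1.30 ± 0.22, adjusted p = 0.00693) and ASNS (-0.77 ± 0.19, adjusted p = 0.0449). These are 2 of 10 genes lower, against 2.11% of all genes, and none higher (2 at an unadjusted p under 0.05, ATF3 and PPP1R15A), against 1.66%. TRIB3 (-0.64 ± 0.16, adjusted p = 0.0523) and ATF4 (-0.50 ± 0.14, adjusted p = 0.0788) missed the threshold and were called under 6 and 4 of 15 alternatives. CHAC1 (-0.55 ± 0.20, adjusted p = 0.207), ATF3 (0.51 ± 0.20, adjusted p = 0.24) and PPP1R15A (0.43 ± 0.18, adjusted p = 0.275) were not called. The intervals of DDIT3 (-0.43 to 0.31) and DDIT4 (-0.38 to 0.41) leave room for differences of either sign. The call of ASS1 was lost without E10, without E14 or without P2 (adjusted p up to 0.229, 0.00224 at the lowest), and that of ASNS under 7 of 15 alternatives, namely without any 1 of the 4 lines, with arrays centred on their medians (adjusted p = 0.0585), with only the arrays of 48 h (0.0953) and without the E14 arrays at 12 and 24 h (0.0601), over a range of 0.0178 to 0.606. The size of the ASNS difference lay between -0.84 and -0.70 over these alternatives, and under centring TRIB3 was called in its place (-0.64, adjusted p = 0.049).

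With tet present, 5 of the 10 genes changed with time in culture in the clones. From 6 to 48 h DDIT4 rose by 1.89 ± 0.13 (3.71-fold, adjusted p = 3.69e-05), CHAC1 by 0.69 ± 0.14 (adjusted p = 0.0175), TRIB3 by 0.52 ± 0.11 (adjusted p = 0.0206) and ATF4 by 0.37 ± 0.10 (adjusted p = 0.0441), while PPP1R15A fell by 0.57 ± 0.12 (adjusted p = 0.0209). These are 4 genes higher and 1 lower, against 2.45% and 3.18% of all genes. ASS1 (-0.05 ± 0.16, adjusted p = 0.893) and ASNS (-0.08 ± 0.13, adjusted p = 0.778) did not pass the test. The RNA integrity measure also differed between these times, at 0.19 against 0.66 in E10 and 0.45 against 0.74 in E14, and with it as a covariate only the call of DDIT4 was kept. The sizes with the covariate were 0.67 for CHAC1 (adjusted p = 0.0589), 0.44 for TRIB3 (0.0751), 0.29 for ATF4 (0.14) and -0.56 for PPP1R15A (0.0617), so that CHAC1 and PPP1R15A were about as large as without it. The call of ATF4 was also lost with no intensity filter (adjusted p = 0.0511), with centred arrays (0.0735) and without the E14 arrays at 12 and 24 h (0.0791), over a range of 0.0103 to 0.798. The second probe set of TRIB3 had a difference of the other sign (-0.22 ± 0.25, adjusted p = 0.658), and that of PPP1R15A fell as well (-0.71 ± 0.13, adjusted p = 0.0107). Without E10 or without E14 the count was 1 higher and 0 lower.

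Other genes of the pathway were grouped by role, also with earlier results of these data known. Each list is given by the number called in the clones at 48 h, where 14.7% of all genes were higher and 13.2% lower. Of 38 measured other amino acid response targets of ATF4, 28 were lower and 0 higher by limma (0 also at an unadjusted p under 0.05), with a median difference of -0.78 against -0.04 over all genes. In the control lines 9 were lower and 0 higher (21 and 0 at an unadjusted p under 0.05), against 3.64% and 4.01% of all genes, and in the difference of both responses 10 and 0 (23 and 0), against 2.11% and 1.66%. The largest differences between clones and control lines were in PSAT1, an enzyme of serine synthesis (-1.38, adjusted p = 0.000383), EIF4EBP1, a repressor of cap-dependent translation (-1.23, adjusted p = 0.000526), CTH, which makes cysteine (-1.22, adjusted p = 0.00591), and SLC7A1, a carrier of arginine and lysine (-1.04, adjusted p = 0.00337). CTH fell by 2.34 in the clones and by 1.11 in the control lines, and PSAT1 by 1.92 and 0.55. Targets that did not pass the test in the clones included SLC7A11 (-0.62), NUPR1 (-0.17), GDF15 (-0.06), PYCR1 (-0.01) and SLC38A2 (0.02). Without E10 the count lower in the clones was 18 and without E14 it was 16, and the count in the difference of responses was 0 without either clone and 5 without U937T. The count lower in the control lines also dropped in every fit that left out 1 line. Without E10 or E14 that drop came from the estimate of the spread alone, since the differences of the control lines stayed the same.

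Upstream, among 12 genes of the eIF2 alpha kinases, eIF2 and eIF2B, the exchange factor that phosphorylated eIF2 inhibits, 6 were lower and 1 higher in the clones (median -0.34). The higher gene was EIF2AK2 (PKR), the kinase of double-stranded RNA (0.67, adjusted p = 0.000289), and the lower ones included the eIF2B subunit EIF2B3 (-1.10, adjusted p = 4.15e-06) and eIF2 alpha itself, EIF2S1 (-0.66, adjusted p = 0.000293). In the difference from the control lines EIF2AK2 (0.59, adjusted p = 0.0459) and EIF2B3 (-0.65, adjusted p = 0.028) were called. EIF2B3 was also called lower in the control lines themselves (-0.45, adjusted p = 0.0201), and EIF2AK2 was not called there (0.08). Calls of single genes of the lists were not followed over the alternatives. The kinases EIF2AK1, EIF2AK3 and EIF2AK4 had differences of 0.05, 0.34 and 0.07 in the clones and did not pass the test.

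Of 12 feedback genes and regulators of ATF4, 5 were higher and 2 lower in the clones, with a median of 0.27. TRIB1 and TRIB2, relatives of TRIB3, rose by 2.42 (adjusted p = 1.05e-06) and 1.51 (adjusted p = 9.9e-06) where TRIB3 fell, and CREBRF, a bZIP protein of the ER stress response, rose by 1.68 (adjusted p = 4.47e-07). The same 3 genes were also higher in the control lines, by 1.24, 0.76 and 0.98, and the difference of both responses was called for TRIB1 (1.19, adjusted p = 0.0291) and CREBRF (0.70, adjusted p = 0.0369). IMPACT, an inhibitor of the kinase EIF2AK4 (GCN2), and GCN1, its activator, fell by 0.79 and 0.59.

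Of 20 measured bZIP genes that can pair with ATF4 or its relatives, 6 were higher and 3 lower (median 0.16). FOS rose by 2.17 in the clones and 1.59 in the control lines, and JUN by 1.13 (adjusted p = 1.7e-05), with a difference between both responses of 0.89 (adjusted p = 0.0152). CEBPG, a frequent partner of ATF4, had a difference of -0.13 (adjusted p = 0.437). Of 20 genes of the ER unfolded protein response, 5 were lower and 1 higher (median -0.13). The chaperones HSPA5 (-0.31, adjusted p = 0.0204) and HYOU1 (-0.53, adjusted p = 0.00142) were among the lower ones, and SDF2L1 (-0.98) was the only gene of this list called in the difference of responses (-0.68, adjusted p = 0.0175).

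Around ASS1 and ASNS, 20 measured genes of arginine, aspartate and asparagine metabolism had 6 lower and 3 higher in the clones (median -0.11). The ornithine carrier SLC25A15 fell by 1.40 (adjusted p = 4.22e-06) and the polyamine enzyme ODC1 fell by 1.30 (adjusted p = 1.92e-06), and both were called in the difference of responses (-0.91, adjusted p = 0.0181, and -0.87, adjusted p = 0.00822). GLUL, which makes glutamine, rose by 1.13 in the clones and 0.83 in the control lines. ASL, which acts next after ASS1, had a difference of 0.10 (adjusted p = 0.585). Of 20 genes around DDIT4 and mTORC1, 4 were lower and 5 higher (median -0.01), EIF4EBP1 and SESN2 being shared with the ATF4 targets. MLST8, a subunit of mTORC1, fell by 1.29 and SESN1, a sestrin that restrains mTORC1, rose by 0.97. Both were called in the difference of responses (-0.74, adjusted p = 0.02, and 0.72, adjusted p = 0.0231). The sestrin SESN2 (-0.67) and DEPTOR (-1.07) were called lower in the clones, and neither was called in the difference of responses.

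Likeness of pattern was measured as Pearson's r over the 10 differences without minus with tet, as a description of points that share lines and clones. The search ran among 7791 probe sets whose differences span at least 1 (log2). Closest to ASS1 were ZBED3 (r = 0.995) and DNPH1 (0.989). Closest to ASNS were MRRF (0.993) and MNS1 (0.988), to TRIB3 the host gene SNHG17 (0.993) and REXO4 (0.992), and to CHAC1 the genes ADD2 (0.967) and ZBED3 (0.964). ATF3 had the weakest likeness, with MOSPD2 (0.926) and TASOR (0.918). The differences of ATF4, ATF5, DDIT3, DDIT4 and PPP1R15A spanned less than 1, so that no gene was named for them.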

How the data were processed

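Total RNA of 20 cultures was hybridized to HG-U133 Plus 2.0 arrays. The authors deposited log2 intensities made by Robust Multi-array Analysis (background correction, quantile normalization, median polish), which pulls arrays to a common distribution and can shrink large changes. The values were used as deposited. Array medians lay between 5.25 and 5.35 over 54675 probe sets, of which 1801 with several gene symbols and 11777 with none were left out. The number of arrays limits the precision.

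The intensity filter asked for a mean of 3 or more (log2) in each clone at 24 and at 48 h and in each control line, and 35610 were tested. limma 3.58.1 in R 4.3.3 fitted 10 groups with the line as a fixed block (8 residual and 4.73 prior degrees of freedom), after a test on simulated data. The simulated arrays had independent noise and no differences between lines, so that test could not check the block or the lack of repeated cultures. Benjamini-Hochberg adjustment of p-values ran over all probe sets tested, and called means under 0.05. The line labels pair the cultures. Deviations of E10 minus E14 had a median r of 0.11 over 28 pairs of groups (from -0.22 to 0.64), and those of P2 minus U937T an r of -0.24.

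The 10 genes and all lists were chosen with earlier results of these data known. The genes named are the 10, MECOM, up to 4 called genes per list by the size of the difference between the responses of clones and control lines, and the 2 genes closest in pattern. All others were named after their values had been seen, list members without a call included. Gene names came from the platform annotation, and promoter windows and coordinates from RefSeq. Alternatives covered the filter, the probe set of a gene, centring, the variance model, the block, the arrays in the fit, each line left out, RNA integrity and a 2-fold minimum. The counts of the ATF4 target list under each alternative were added after seeing the data.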

Additional observations from a re-analysis of the deposited data

Results flagged for a closer look

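The responses of the EVI1 clones and of the control lines to tet withdrawal at 48 h differed by the test of their difference for ASNS (-0.77 on the log2 scale, -1.19 and -1.33 in E10 and E14 against -0.44 and -0.55 in P2 and U937T) and for ASS1 (-1.30, with -2.03 and -2.47 against -0.84 and -1.08). The response of the clones also differed between 24 and 48 h for ASNS (-1.03) and for ASS1 (-1.71), with no control lines at 24 h to set beside it. The first of these calls for ASNS (adjusted p = 0.0449) was lost under 7 of 15 alternatives, centring of the arrays on their medians (adjusted p = 0.0585) and each fit without 1 line among them, and that for ASS1 was lost under 3, the fits without E10, E14 or P2. The differences between 24 and 48 h lost their calls in 3 fits, without E10, without E14 and without the E14 arrays at 12 and 24 h.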

How the results depend on the processing

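At 48 h in the clones 5 genes were lower under every alternative but the 2-fold minimum, which left 3 lower and 0 higher, and 1 to 2 were higher without a line. At 24 h the count lower was 1 with the probe set of the largest spread, 0 without the middle arrays of E14 (those at 12 and 24 h) and 0 with the 2-fold minimum, and 0 to 3 without a line, and ATF4 lost its call with no intensity filter and in the fit of differences, which left 2 lower. In the control lines 1 gene was higher with the stricter intensity minimum of 5, with the probe set of the highest mean, centred arrays, the intensity trend, the fit of differences and the 3′ to 5′ covariate. The count lower there was 1 with centred arrays, with only the arrays of 48 h and without the middle arrays of E14, 0 with the 2-fold minimum, and 0 to 1 without a line. The difference of responses had 4 genes lower with the stricter intensity minimum of 5, the probe set of the highest mean, the intensity trend and the covariate, 1 with only the arrays of 48 h, without the middle arrays of E14 and with the 2-fold minimum, and 0 to 1 without a line. From 24 to 48 h the count lower was 4 with the stricter intensity minimum of 5, the probe set of the highest mean and the intensity trend, 0 without the middle arrays of E14, and 0 to 2 without a line. With time in tet it was 1 higher and 0 lower with the covariate and with the 2-fold minimum, and 1 to 4 higher and 0 to 1 lower without a line. TRIB3 turned to -0.22 in that comparison (adjusted p = 0.653) with the probe set of the largest spread. Of the other ATF4 targets, the probe set of the largest spread gave 1 higher in the clones and 1 higher in the control lines. In the clones 12 were lower with the 2-fold minimum and 16 to 28 without a line (18 without E10 and 16 without E14). In the difference of responses 4 were lower with only the arrays of 48 h, 5 with the 2-fold minimum and 0 to 7 without a line. In the control lines 14 were lower with the intensity trend, 2 with only the arrays of 48 h, 4 without the middle arrays of E14, 1 with the 2-fold minimum, and 1 to 3 without a line. Without the replicate block 2 genes were lower at 24 h, ASS1 having lost its call, and the counts of the 10 genes in the other comparisons were as with it. A fit without E10 or without E14 has 1 residual degree of freedom, from the control lines, and lets the lone clone vary as they do. The causes of these shifts were not tested. A probe set near background limits the size of a fall it can show.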
